A study of Mus musculus with 6 samples.

Results

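The genes described here are Bmp2, which encodes a secreted ligand of the bone morphogenetic protein (BMP) family, and 7 genes that BMP signalling is known to switch on: Id1, Id2, Id3, Id4, Smad7, Atoh8 and Hamp. They were taken by gene symbol from the deposited table, which holds 1834 genes, and all 8 were found there. The set was put together with the difference between the study's groups already known, so the values below are a description of these genes and carry no test of their own. RNA sequencing was done on mouse liver from mice labelled as Ly6d overexpression that received AAV-Ly6d (3 libraries) and from mice labelled WT that received AAV-GFP (3 libraries). AAV stands for adeno-associated virus, here a vehicle for gene delivery to the liver, Ly6d is a small membrane-anchored protein, and green fluorescent protein serves as the control cargo. Both groups ate the same diet, and the study's title places it in metabolic dysfunction-associated steatotic liver disease (MASLD). The sources used here do not give the composition of the diet, the strain, age and sex of the mice, the promoter and dose of the vectors, or whether each library is a separate animal, so the spread between libraries may be technical.

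BMP ligands bind receptor complexes on the cell surface, which phosphorylate SMAD1, SMAD5 and SMAD9. These join SMAD4, enter the nucleus and activate target genes. In the liver, BMP2 and BMP6 are made mainly by sinusoidal endothelial cells and act on neighbouring hepatocytes, where the pathway drives Hamp. Its product, hepcidin, is a secreted peptide that blocks the iron exporter ferroportin and so lowers iron entry into blood. The ID proteins lack a DNA-binding region and hold other helix-loop-helix factors inactive, SMAD7 inhibits the pathway that induces it, and ATOH8 is a helix-loop-helix transcription factor.

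The ligand and its targets stood on opposite sides. Bmp2 was 2.80-fold lower in AAV-Ly6d livers, whereas 6 of the 7 target genes were between 1.66-fold and 3.95-fold higher, with Id1 and Hamp showing the largest ratios. Id4 was the exception and was 2.79-fold lower. For all 8 genes the AAV-Ly6d and AAV-GFP libraries did not overlap, which was also true of 84.5% of the 1780 genes tested in the table. With limma and a Benjamini-Hochberg adjusted p under 0.05 over those 1780 genes, all 8 passed, 6 higher and 2 lower. This call applied to 43.9% of the tested genes (15.9% higher and 28% lower), and nothing is read from the count because the genes and the table were chosen on the same libraries. After rescaling each library by its median ratio, 69.4% of the calls in the table were higher, against 36.2% on the deposited scale. The 8 directions were the same on both scales.

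The 1834 genes held between 3248078 and 4359932 recovered reads in a library, a part of each library whose full depth is not known. They appear to have been selected for a difference between the groups: in a DESeq2 fit to the recovered reads the largest unadjusted p in the table was 0.0911. Ly6d had normalised read counts of 3181, 1799 and 3275 in the AAV-Ly6d libraries and 56.1, 9.68 and 182 in the AAV-GFP libraries, as the labels state. AAV-GFP replicate 2 lay apart on the first principal component, with a score of 49.9, where its group mates scored 15.4 and 18.1. Of 13 listed hepatocyte markers 8 are in the table and none is at 0. Of these 8, Apoa1, Hnf4a and Tat rose and 5 did not pass, with a median log2 fold change of 0.60. No Kupffer cell marker of 13 listed is among the 1834 genes, 2 of 9 cholangiocyte markers (Tff3 and Sox9) rose, and of 5 erythroid markers measured 2 fell and 3 did not pass.

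**Figure D1:**
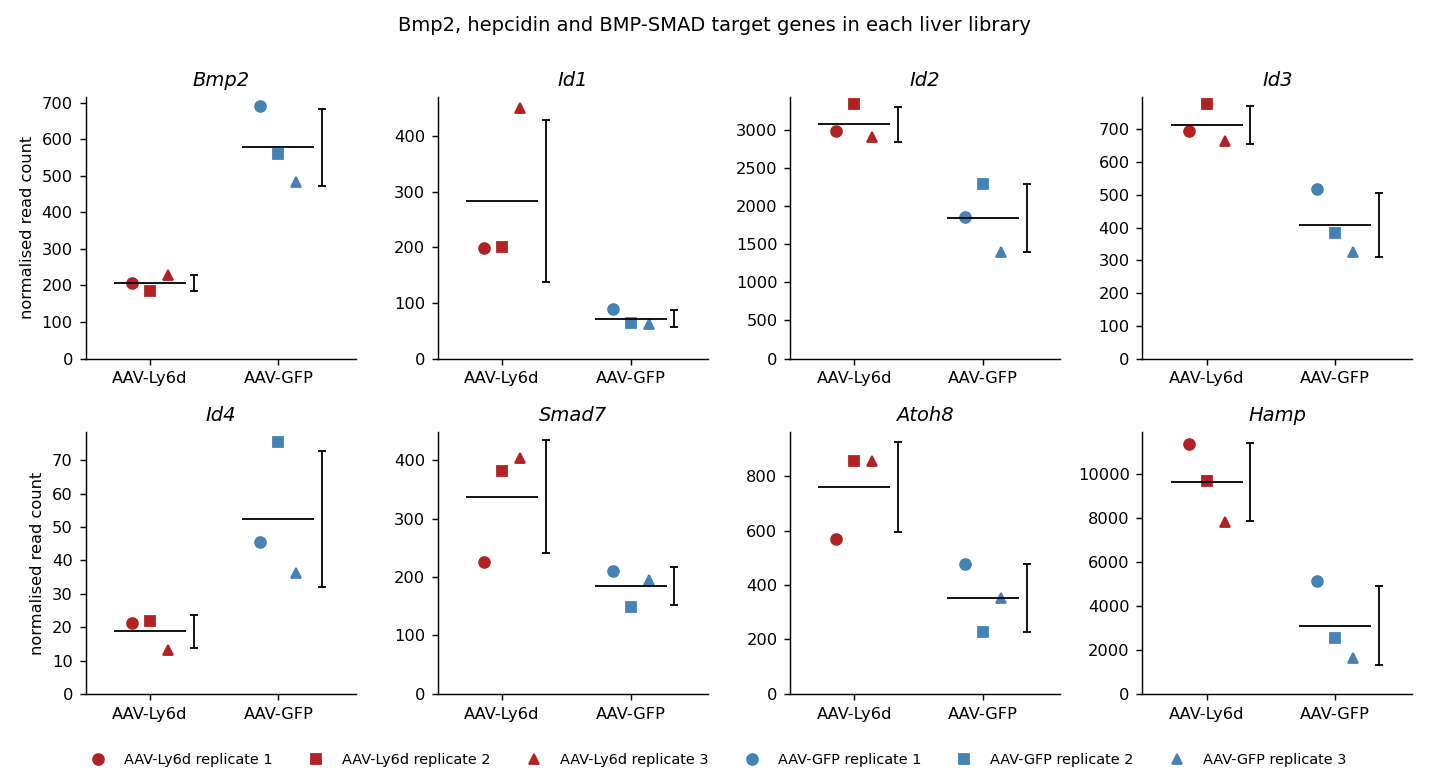
Normalised read count (vertical axis, linear from 0) of Bmp2, Id1, Id2, Id3, Id4, Smad7, Atoh8 and Hamp in 3 AAV-Ly6d and 3 AAV-GFP libraries. Points are libraries, horizontal lines are group means and the bars beside them are 1 SD. Bmp2 and Id4 lie lower in AAV-Ly6d, the other 6 genes lie higher, and the groups do not overlap in any panel.

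Bmp2 lies on the plus strand of chromosome 2 from 133552159 to 133562885 (GRCm38) and has 3 exons in its longest transcript of 3555 bases. It had a normalised read count of 207, 183 and 227 in the AAV-Ly6d libraries and 691, 558 and 484 in the AAV-GFP libraries. Each AAV-Ly6d library was below every AAV-GFP library, and the highest AAV-Ly6d value was 0.470 times the lowest AAV-GFP value. The means were 206 ± 22.0 in AAV-Ly6d and 578 ± 105 in AAV-GFP (SD, n = 3 each). On the log2(value + 1) scale, which understates changes of low genes, the difference was -1.47 (SE 0.22). All log2 fold changes here are on this scale, except in some of the alternative fits at the end.

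The endothelial markers in the table were lower in the same libraries and by a like amount. Of 21 listed endothelial markers 11 are in the table, none of them at 0. All 11 fell in limma, against 28% of all tested genes, with a median log2 fold change of -1.51. They include Ptprb, an endothelial phosphatase, and Mrc1, Stab2 and Fcgr2b, scavenger and Fc receptors of sinusoidal endothelium. The longest transcripts of Ptprb, Stab2 and Mrc1 have 11911, 8228 and 5374 bases, and that of Fcgr2b has 3544. Over tested genes the median log2 fold change was -0.83 for 4000 bases or more and -0.42 from 2000 to under 4000. The part of transcript length in the marker difference was not tested. In AAV-GFP replicate 2 Ptprb had 3668, against 2169 and 1960 in its group mates. The summed value of the 11 markers lay between 3322 and 4492 in AAV-Ly6d and between 8863 and 13112 in AAV-GFP. Set against this sum, the Bmp2 value per 1000 was 62.3, 40.8 and 63.7 in AAV-Ly6d and 66.7, 42.6 and 54.6 in AAV-GFP. The groups overlapped, with means of 55.6 ± 12.8 and 54.6 ± 12.0 in AAV-Ly6d and AAV-GFP (SD, n = 3 each). The table appears to have been selected for a difference between the groups, so listed markers that did not differ may be absent. The count and the sum therefore describe only the markers present. In bulk liver RNA, fewer endothelial cells and less RNA per endothelial cell cannot be told apart, and the part of endothelial content in the Bmp2 difference was not tested.

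Hamp had the highest level per transcript length of the 8 genes. It occupies positions 30942368 to 30944032 of chromosome 7, minus strand, and its longest transcript has 410 bases in 3 exons. Normalised read counts were 11352, 9684 and 7813 in the AAV-Ly6d libraries and 5130, 2529 and 1652 in the AAV-GFP libraries. The AAV-Ly6d library with the lowest value exceeded the highest AAV-GFP value by a factor of 1.52, and the spread was wider within AAV-GFP, with a coefficient of variation of 18.4% in AAV-Ly6d and 58.3% in AAV-GFP. The means were 9616 ± 1771 in AAV-Ly6d and 3104 ± 1809 in AAV-GFP (SD, n = 3 each), and the log2 fold change was 1.77 (SE 0.38). 

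Hepatocytes are the source of hepcidin, and 7 of the 8 hepatocyte markers in the table were also higher in AAV-Ly6d without overlap, all except Apob. Groups did not overlap for 84.5% of all tested genes either, so nothing is read from this count. The table appears selected for a difference between the groups, so the other markers of the 13 listed may be absent for lack of one. The summed value of all 8 overlapped between the groups, between 594959 and 621444 in AAV-Ly6d and between 456730 and 922614 in AAV-GFP, but the top of that range is AAV-GFP replicate 2, where Apob alone held 743167. Without Apob the sum lay between 405356 and 427204 in AAV-Ly6d and between 179447 and 291939 in AAV-GFP, without overlap. Apob has a longest transcript of 13934 bases and a log2 fold change of -0.61, which did not pass. The next most abundant, Ahsg, Apoa1 and Serpina1a, have 1484, 1035 and 1581 bases. Tested genes under 2000 bases had a median log2 fold change of 0.59. The part of transcript length in these sums was not tested. Per 1000 of the sum without Apob, Hamp stood at 28.005, 22.7 and 19.2 in AAV-Ly6d and at 17.6, 14.1 and 6.11 in AAV-GFP. These groups did not overlap either, and the ratio of their means was 1.85, against 2.81 when Apob was in the sum. The part of the hepatocyte markers' difference in that of Hamp was not tested. A near copy, Hamp2, lies 17686 bases away on the same chromosome and is not among the 1834 genes, so reads shared between the copies cannot be assigned with certainty. The lincRNA gene Gm44662 covers Hamp on the other strand, and without a stated strand setting its reads cannot be told from those of Hamp.

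Among the Id genes, Id1, Id2 and Id3 were higher and Id4 was lower. Id1 (chromosome 2, plus strand, 152736251 to 152737410, 1 exon) had 198, 200 and 452 in the AAV-Ly6d libraries and 90.0, 63.5 and 61.6 in the AAV-GFP libraries. The lowest AAV-Ly6d value exceeded the highest AAV-GFP value by a factor of 2.20, and AAV-Ly6d replicate 3 stood above the rest of its group. The means were 283 ± 146 and 71.7 ± 15.9 in AAV-Ly6d and AAV-GFP (SD, n = 3 each), with a log2 fold change of 1.88 (SE 0.38), or 1.48 without AAV-Ly6d replicate 3. Id2 (chromosome 12, minus strand, 25093799 to 25097140) had 2983, 3343 and 2910 in AAV-Ly6d and 1858, 2293 and 1398 in AAV-GFP. Its log2 fold change of 0.76 (SE 0.21) was the smallest of the 8 genes. Id3 (chromosome 4, plus strand, 136143497 to 136145755) had 696, 776 and 665 in AAV-Ly6d and 517, 383 and 325 in AAV-GFP, a log2 fold change of 0.83 (SE 0.23). The AAV-Ly6d libraries of Id2 and Id3 lay close together, with coefficients of variation of 7.53% and 8.08%, while those of the AAV-GFP libraries were 24.2% and 24.1%.

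Id4 had the lowest level of the 8 genes per transcript length. It lies on the plus strand of chromosome 13 from 48261228 to 48266026 and had 21.4, 21.9 and 13.1 in the AAV-Ly6d libraries and 45.5, 75.3 and 36.3 in the AAV-GFP libraries. The log2 fold change was -1.40 (SE 0.41). These values rest on 22, 22 and 12 recovered reads in AAV-Ly6d and 47, 70 and 43 in AAV-GFP, and the exact Poisson 95% interval of the 12 reads runs from 6.20 to 20.96, which covers counting error only. The other 7 genes had at least 59 reads in every library. The antisense gene A330033J07Rik overlaps 1396 bases and the lincRNA gene Gm49291 overlaps 1364 bases at the start of Id4 on the other strand, so reads from these genes and from Id4 cannot be told apart here.

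Counted per kilobase of the longest transcript, the 4 Id genes made up different shares of their joint level. Id2 held 67.8%, 68.4% and 61.8% in AAV-Ly6d and 65.6%, 75.7% and 69.2% in AAV-GFP, with overlap between the groups. The share of Id1 was 7.64%, 6.95% and 16.3% in AAV-Ly6d and 5.40%, 3.56% and 5.17% in AAV-GFP. Id4 held 0.248%, 0.229% and 0.142% in AAV-Ly6d and 0.822%, 1.27% and 0.918% in AAV-GFP. The shares of Id1 and Id4 therefore did not overlap between the groups, and those of Id2 and Id3 did.

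The inhibitor gene Smad7 (chromosome 18, plus strand, 75367529 to 75395935) had 226, 382 and 404 in the AAV-Ly6d libraries and 211, 148 and 194 in the AAV-GFP libraries. AAV-Ly6d replicate 1 exceeded the highest AAV-GFP library by a factor of only 1.07, the narrowest gap of the 8 genes. The log2 fold change was 0.84 (SE 0.29). Atoh8 (chromosome 6, minus strand, 72206177 to 72235577) had 570, 857 and 857 in AAV-Ly6d and 476, 227 and 352 in AAV-GFP, and a log2 fold change of 1.15 (SE 0.31). For Smad7 and Atoh8 alike, the lowest AAV-Ly6d library was replicate 1, and in AAV-GFP replicate 1 was the highest and replicate 2 the lowest. Without AAV-GFP replicate 2 the log2 fold changes were 0.69 for Smad7 and 0.87 for Atoh8.

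Levels between genes can be compared only per length. Per kilobase, Hamp stood highest in both groups, with a mean value of 23454 ± 4319 in AAV-Ly6d and 7570 ± 4412 in AAV-GFP (SD, n = 3 each). Id2 came next with 1564 ± 118 in AAV-Ly6d and 939 ± 227 in AAV-GFP, and then Id3 with 557 ± 45.0 in AAV-Ly6d and 319 ± 76.9 in AAV-GFP. In AAV-Ly6d livers Atoh8 (323 ± 70.5) and Id1 (244 ± 126) followed, with libraries that overlapped, above Smad7 (78.8 ± 22.6) and Bmp2 (57.9 ± 6.20), whose libraries overlapped too. In AAV-GFP livers Bmp2 (162 ± 29.5) and Atoh8 (149 ± 52.9) had overlapping libraries and stood above Id1 (61.8 ± 13.7) and Smad7 (43.1 ± 7.55). Id4 was last in both groups, at 4.88 ± 1.29 in AAV-Ly6d and 13.6 ± 5.30 in AAV-GFP.

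Transcript length went with the direction of change across the table, and the 8 genes differ in length. The median log2 fold change was 0.59 among 392 tested genes with a longest transcript under 2000 bases, -0.42 among 607 genes from 2000 to under 4000 bases and -0.83 among 780 longer genes. Hamp (410 bases), Id1 (1160), Id3 (1278) and Id2 (1969) fall in the first class. Atoh8 (2355), Bmp2 (3555) and Id4 (3849) fall in the second, and Smad7 (4278) in the third. The part of transcript length in these differences was not tested.

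Setting each target against the ligand in the same library gave larger ratios between the groups, which follows from their opposite directions. The Id1 value was 0.958, 1.09 and 1.99 times that of Bmp2 in AAV-Ly6d and 0.130, 0.114 and 0.127 times in AAV-GFP. The ratio of Hamp to Bmp2 was 54.8, 52.8 and 34.4 in AAV-Ly6d and 7.43, 4.53 and 3.42 in AAV-GFP. The mean ratio was 10.9-fold higher in AAV-Ly6d for Id1 and 9.24-fold higher for Hamp. For Atoh8, Smad7, Id3 and Id2 it was 6.14-fold, 5.09-fold, 5.00-fold and 4.69-fold higher, without overlap between the groups. The ratio of Id4 to Bmp2 overlapped between the groups, with 0.103, 0.1196 and 0.0574 in AAV-Ly6d and 0.0658, 0.135 and 0.0750 in AAV-GFP.

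**Figure D2:**
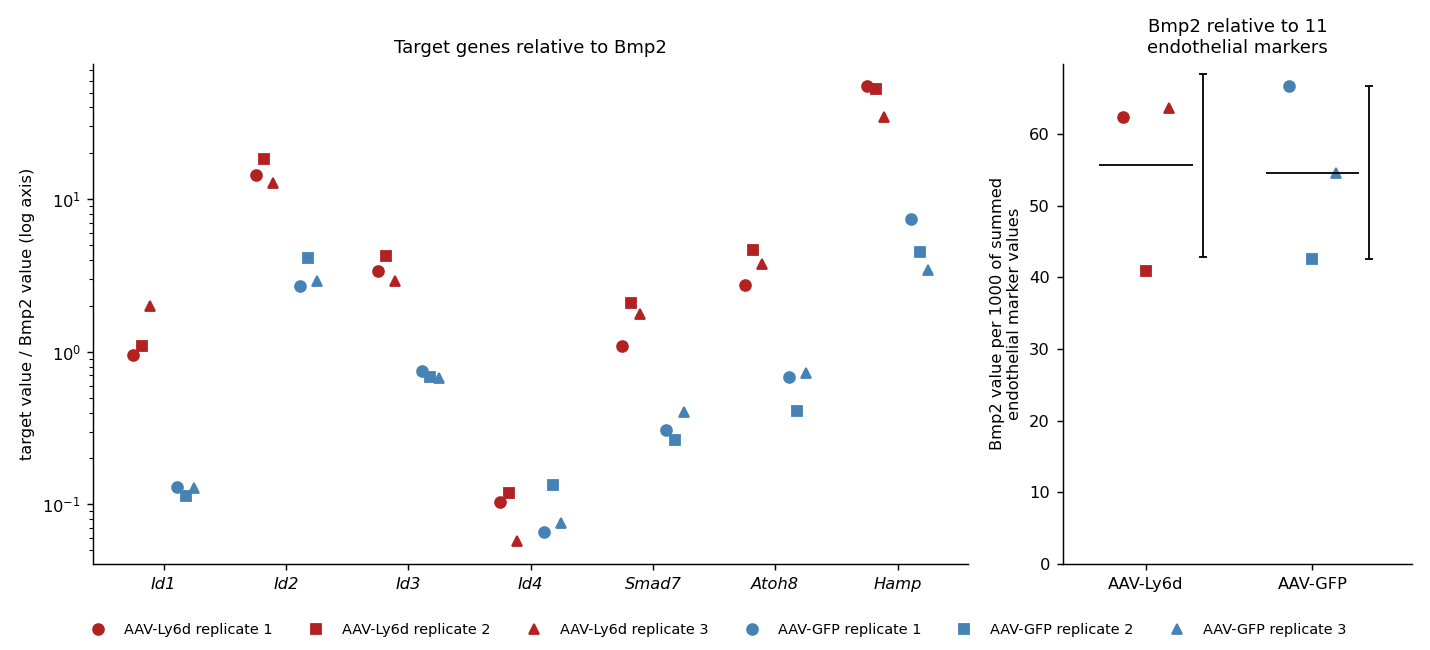
Left, value of each target gene divided by the Bmp2 value of the same library (log axis). Right, Bmp2 value per 1000 of the summed values of 11 endothelial markers (linear axis from 0, lines are means, bars 1 SD). Points are the 3 AAV-Ly6d and 3 AAV-GFP libraries. Target ratios other than that of Id4 separate the groups, and the Bmp2 to endothelial ratio averages 55.6 in AAV-Ly6d and 54.6 in AAV-GFP.

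Inside the groups, ligand and targets shared the order of the libraries in part. In AAV-GFP, Bmp2, Id1, Id3 and Hamp were all highest in replicate 1 and, on the deposited scale, lowest in replicate 3. After rescaling by the median ratio Bmp2, Id1 and Id3 were lowest in replicate 2, so that end of the order depends on the scale. In AAV-Ly6d, Bmp2, Id1 and Smad7 were highest in replicate 3 and Atoh8 was level in replicates 2 and 3, whereas Hamp, Id2, Id3 and Id4 were lowest there. With 2 separate groups of 3 libraries, no correlation of ligand with targets across libraries is given.

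The sequence before the RefSeq start site is shown for Id2 and Id3, which were higher, and for Id4, which was lower, with matches to known motifs in capitals (GTCTG is CAGAC read on the other strand). The motifs searched on both strands were GGCGCC, the core of BMP response elements, CAGAC, a SMAD binding element, TTCNNNGAA, the form bound by STAT factors, and CACGTG, an E-box. Each line gives the 250 bases upstream of the RefSeq start site, 5′ to 3′ along the gene, on GRCm38.p6, at chr12:25096093-25096342 (minus strand) for Id2, chr4:136143572-136143821 (plus strand) for Id3 and chr13:48260866-48261115 (plus strand) for Id4.
Id2: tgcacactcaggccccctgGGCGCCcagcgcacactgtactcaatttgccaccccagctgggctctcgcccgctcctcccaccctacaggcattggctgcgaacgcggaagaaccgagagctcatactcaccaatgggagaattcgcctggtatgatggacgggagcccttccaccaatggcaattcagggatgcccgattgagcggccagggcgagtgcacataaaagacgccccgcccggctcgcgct
Id3: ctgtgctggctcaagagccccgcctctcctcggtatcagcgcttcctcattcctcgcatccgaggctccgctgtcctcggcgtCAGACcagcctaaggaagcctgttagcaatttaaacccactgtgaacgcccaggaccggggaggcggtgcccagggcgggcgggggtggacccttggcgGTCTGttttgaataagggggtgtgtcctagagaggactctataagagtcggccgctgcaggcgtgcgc
Id4: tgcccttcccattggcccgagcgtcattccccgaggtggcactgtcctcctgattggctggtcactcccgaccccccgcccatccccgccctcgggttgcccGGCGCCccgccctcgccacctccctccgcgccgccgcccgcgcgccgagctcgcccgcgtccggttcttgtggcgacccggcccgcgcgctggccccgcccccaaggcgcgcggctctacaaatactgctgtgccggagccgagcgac
The promoters of 4 of the 8 genes were used, the other being that of Atoh8. The windows of Id2 and Id3 lie inside the gene spans given above. They precede the RefSeq start site and not the start of the annotated gene. GGCGCC occurred in Id2 at -231 and in Id4 at -148, and in 9.59% of all 32851 promoters of this length. Among the 1643 promoters of genes in the table its share was 14.4%. GGCGCC was therefore found before a gene that was higher and before one that was lower. CAGAC occurred at -167 and, on the other strand, at -68 in Id3, and in 42.2% of all promoters. CACGTG occurred only in Atoh8 among these 4 genes, at -230, and in 6.02% of all promoters. TTCNNNGAA was in 7.02% of all promoters and its letters were not in these 4 windows. No matches overlapped each other. A match is a description of the letters and not evidence of binding.

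Other genes of the pathway were taken from 7 lists of ligands, receptors, SMADs, antagonists, further targets, iron genes and acute phase genes. Of 136 listed genes besides the 8, 28 are in the table and 27 were tested, of which 4 rose and 6 fell. After rescaling by the median ratio 10 were called as well, 8 of them higher and 2, Bmp6 and Tsc22d1, lower. On that scale 36.2% of all tested genes were called higher and 16% lower. On the deposited scale the median log2 fold change of the pathway genes was -0.53, against -0.67 over all tested genes. The share that passed, 10 of 27, lies near the 43.9% of the whole table.

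Of 15 other BMP, activin and TGF-beta ligands 7 were tested, 2 rose, 2 fell and 3 did not pass. Bmp6, the endothelial BMP that responds to iron load, had 53.5, 68.8 and 76.2 in AAV-Ly6d and 163, 204 and 127 in AAV-GFP. It fell by 1.29 on the log2 scale (SE 0.30, limma adjusted p = 0.0324). Relative to the endothelial marker sum, Bmp6 stood at 16.1, 15.3 and 21.3 per 1000 in AAV-Ly6d and at 15.7, 15.6 and 14.3 in AAV-GFP, with overlap. The ratio of Bmp2 to Bmp6 also overlapped, at 3.18 ± 0.625 in AAV-Ly6d and 3.60 ± 0.783 in AAV-GFP (SD, n = 3 each).

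Bmp5, a ligand of stellate cells, had 23.3, 49.8 and 34.8 in AAV-Ly6d and 101, 66.7 and 111 in AAV-GFP. It fell by 1.38 (SE 0.38, limma adjusted p = 0.0404), a call that was lost after rescaling by the median ratio. Bmp10, another ligand of this family, had 28.2, 52.8 and 53.3 in AAV-Ly6d and 97.7, 68.9 and 83.5 in AAV-GFP and did not pass (log2 fold change -0.92, limma adjusted p = 0.0563). Of 17 stellate and fibroblast markers 9 are in the table, none at 0, of which 7, Bmp5 among them, fell and 2 did not pass. Over all tested genes 28% fell, and the table appears selected for a difference between the groups. The sum of these markers without Bmp5 lay between 1128 and 2527 in AAV-Ly6d and between 3648 and 5196 in AAV-GFP. Bmp5 relative to this sum overlapped between the groups. The part of stellate cell content was not tested.

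Inside the cell, Smad1, a transducer of the BMP signal, had 298, 292 and 243 in AAV-Ly6d and 204, 104 and 194 in AAV-GFP, without overlap, and did not pass (log2 fold change 0.78, limma adjusted p = 0.0572), but was called higher after rescaling by the median ratio. Of 3 tested SMADs and regulators 1 fell, Pmepa1, a TGF-beta induced inhibitor (-1.21). Of 2 tested antagonists 1 fell, Nbl1, which binds BMPs outside the cell and had values of at most 17.7 in any library (-1.80). Both calls were lost after rescaling by the median ratio and with DESeq2's own size factors, and that of Nbl1 in edgeR too. Among 13 further BMP-SMAD targets 2 were tested, and they lay on opposite sides. Tsc22d1, a leucine zipper factor, fell by 1.35 (SE 0.33, limma adjusted p = 0.0351), with 466, 405 and 941 in AAV-Ly6d and 1632, 1598 and 1134 in AAV-GFP. Hes1, a transcriptional repressor that Notch signalling also induces, did not pass (1.10), but was called higher with DESeq2's own size factors.

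Of 33 listed iron genes 6 were tested, and on the deposited scale Bmp6, which fell, was the only one past limma's threshold. This count depends on the scale. After rescaling by the median ratio limma also called Ftl1 higher. With TMM factors edgeR, and with its own size factors DESeq2, called Ftl1, Hmox1 and Hpx higher. Bmp6 was called lower in each. In that order, these fits called 36.2%, 37.5% and 39.2% of all tested genes higher, against 15.9% on the deposited scale. Ftl1, the ferritin light chain of the iron store, had 22528, 26664 and 21984 in AAV-Ly6d and 15646, 13377 and 19701 in AAV-GFP (log2 fold change 0.56, limma adjusted p = 0.0540). Hmox1, which releases iron from heme, had 410, 1130 and 542 in AAV-Ly6d and 378, 53.8 and 332 in AAV-GFP (1.73, limma adjusted p = 0.0625). Slc25a37, a mitochondrial iron importer (-0.53), Steap3, a ferrireductase (-0.53), and Hpx, the heme scavenger hemopexin (0.47), did not pass.

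Hepcidin is also induced through interleukin-6 and STAT3. Of 29 listed genes of this route and of the acute phase 6 were tested, 2 rose and 4 did not pass. Over all tested genes 15.9% rose. The table appears selected for a difference between the groups, so the other listed genes may be absent for lack of one. The part of this route in the Hamp difference was not tested. Junb, a transcription factor of immediate early and STAT3 responses, rose by 1.85 (SE 0.47, limma adjusted p = 0.0351) and had 970, 812 and 869 in AAV-Ly6d and 315, 107 and 435 in AAV-GFP. Il6ra, the receptor chain that binds interleukin-6, rose by 0.96 (SE 0.26, limma adjusted p = 0.0400), with 2688, 2036 and 2324 in AAV-Ly6d and 1155, 872 and 1715 in AAV-GFP. Socs3, a feedback inhibitor induced by STAT3, had 340, 207 and 168 in AAV-Ly6d and 126, 25.8 and 113 in AAV-GFP, without overlap, and did not pass (1.65, limma adjusted p = 0.0519). Itih3, an acute phase protein gene, did not pass (0.47), nor did Hpx, which is also an acute phase gene. After rescaling by the median ratio Socs3 and Itih3 were called higher as well, and with TMM factors or DESeq2's own size factors Hpx too. In that order, these fits called 36.2%, 37.5% and 39.2% of all tested genes higher, against 15.9% on the deposited scale. Il1b, an inflammatory cytokine gene, had a log2 fold change of -1.47 and did not pass in limma on the deposited scale (adjusted p = 0.0540). It was called lower with TMM factors and with DESeq2's own size factors.

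**Figure D3:**
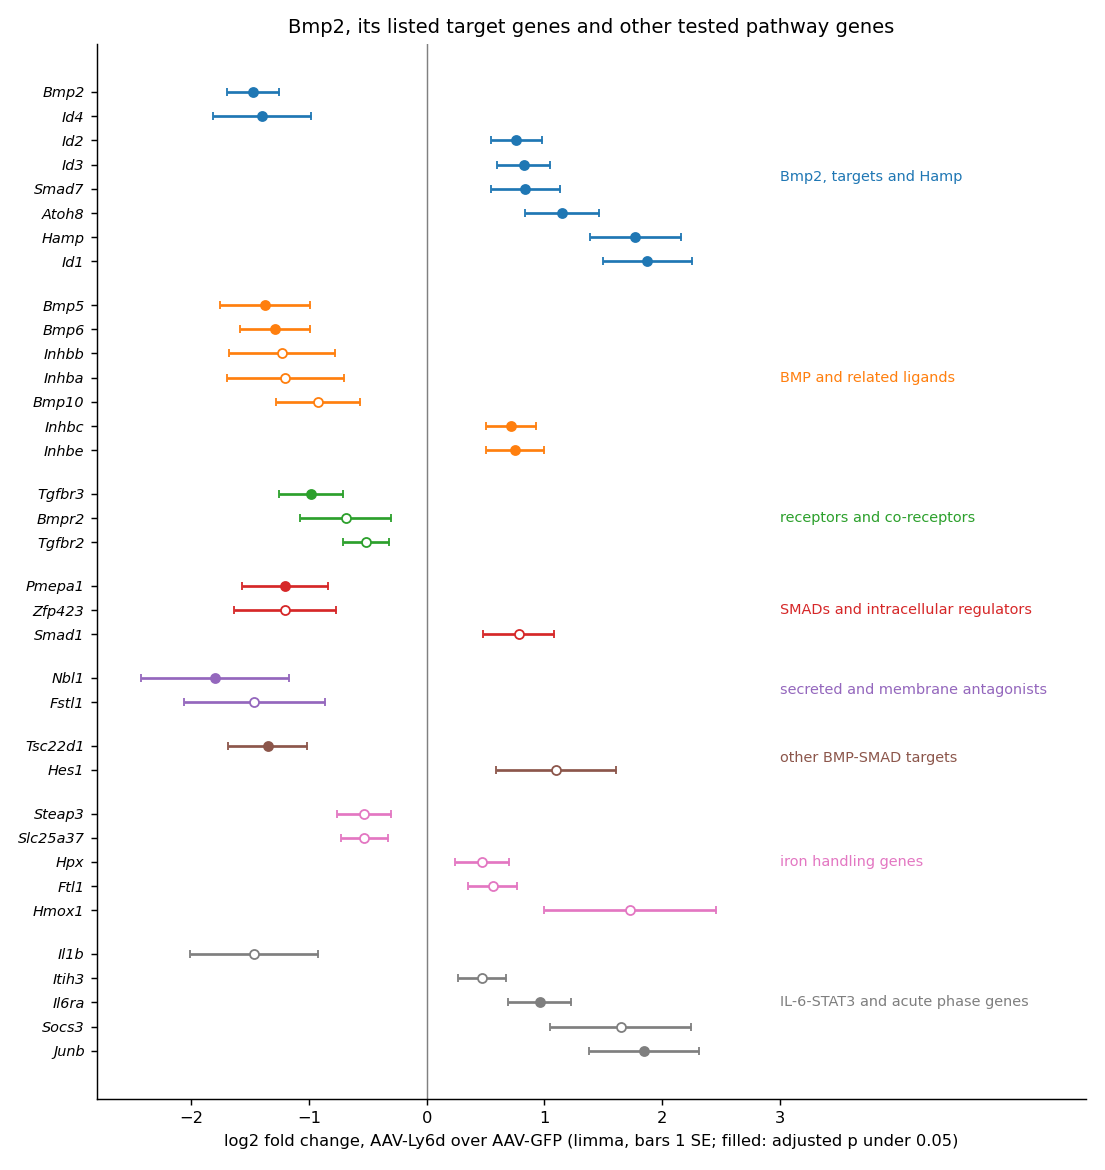
Log2 fold change of AAV-Ly6d over AAV-GFP (horizontal axis, limma on log2(value + 1), bars 1 SE) for Bmp2, its 7 targets and the other tested pathway genes, coloured by list. Filled points have an adjusted p under 0.05 over 1780 genes. Bmp2 (-1.47), Bmp5 (-1.38) and Bmp6 (-1.29) lie on the lower side with Id4, and Id1 (1.88), Junb (1.85) and Hamp (1.77) lie highest among the filled points.

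The genes whose values followed those of Bmp2 most closely were found by the root mean square difference of log2(value + 1) over the 6 libraries after each gene was centred on its own mean. The nearest was Kit, a receptor tyrosine kinase gene, at 0.0571 log2 units, against a median of 0.687 over the tested named genes. It had 69.0, 55.8 and 69.6 in AAV-Ly6d and 203, 170 and 150 in AAV-GFP. Next came Fcgr2b (0.117), the water channel gene Aqp1 (0.124), the homeobox gene Lhx6 (0.154) and Stox2 (0.197). All of these were chosen for likeness, so their direction is fixed by that choice.

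For Id1 the nearest profiles were those of Mup21, a major urinary protein gene (0.285), Oas1g, an interferon-induced oligoadenylate synthetase gene (0.323), Tmem136 (0.447), Sowahb (0.476) and Cyp4a31 (0.476). For Hamp they were Tg, the thyroglobulin gene (0.388), which was listed at 0 in AAV-GFP replicates 2 and 3, then Gstp1, a glutathione transferase gene (0.434), Oas1g (0.443), Cyp7b1, an oxysterol hydroxylase gene (0.454), and Sel1l3 (0.462). The values of Mup21, Oas1g, Cyp4a31 and Gstp1 are uncertain because near copies can share their reads. No other of the 8 genes was among the 5 nearest to Bmp2, Id1 or Hamp. Atoh8 ranked 11 for Id1 at 0.537, and Hamp, Smad7, Id3 and Id2 ranked 48, 50, 95 and 208. For Hamp, Id3 ranked 27 at 0.570, and Atoh8, Id1, Id2 and Smad7 ranked 44, 52, 103 and 258. Bmp2 and Id4 ranked 1248 and 1325 for Id1, and 1239 and 1242 for Hamp. The median over the tested named genes was 1.37 for Id1 and 1.36 for Hamp.

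**Figure D4:**
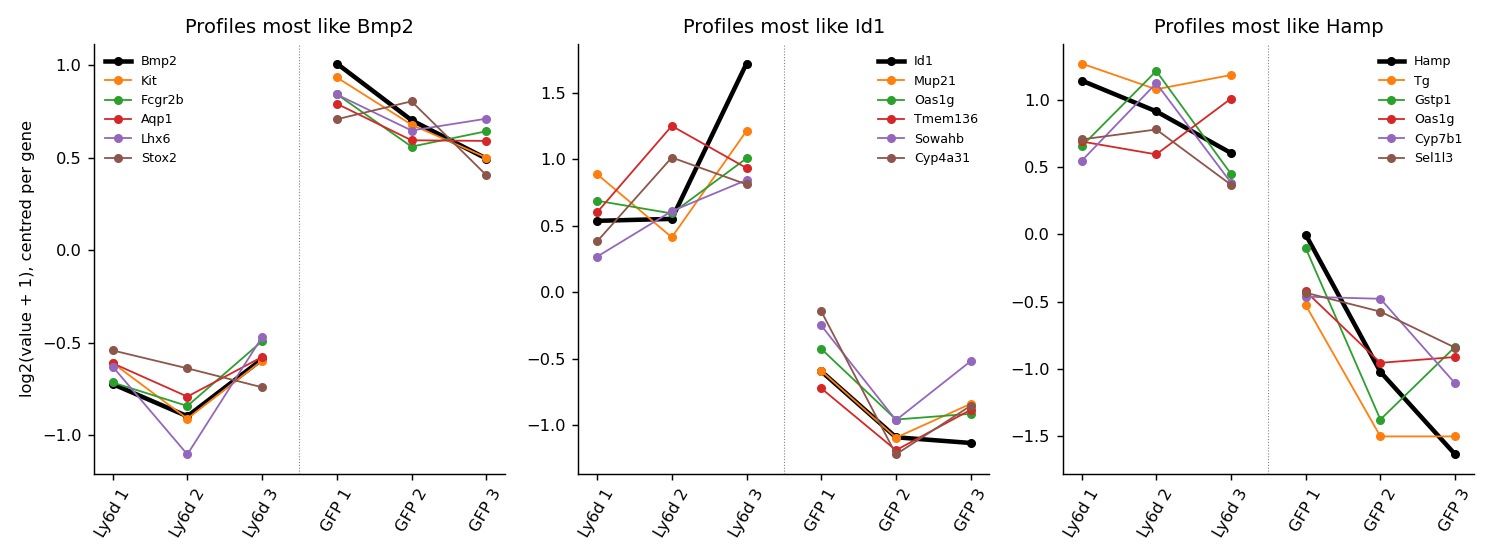
Log2(value + 1) centred on each gene's mean over 6 libraries (vertical axis) for Bmp2, Id1 and Hamp (thick black) and the 5 named genes nearest to each, in 3 AAV-Ly6d and 3 AAV-GFP libraries. Lines join the libraries of a group for the eye and carry no order. The root mean square difference from the nearest profile is 0.0571 log2 units for Bmp2 (Kit), 0.285 for Id1 and 0.388 for Hamp.

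The directions of the 8 genes were the same in each fit that left out 1 library, but the calls depended on single libraries. Leaving out AAV-Ly6d replicate 1, limma called 0 of the 8 genes and 0% of all tested genes. All 8, and 773 of all 1764 tested genes, had an unadjusted limma p under 0.05. With all 6 libraries 1394 of 1780 did, and the table appears selected for a difference between the groups. Leaving out AAV-Ly6d replicate 2 gave 2 of the 8 (Bmp2 and Id1) and 5.89% of all. Leaving out AAV-Ly6d replicate 3 gave 0 of the 8 and 1.08% of all. In that fit 7 of the 8 and 841 of 1758 tested genes had an unadjusted limma p under 0.05. Dropping AAV-GFP replicate 1 gave 5 of the 8 and 7.68% of all, AAV-GFP replicate 2 gave 6 and 34.9%, and AAV-GFP replicate 3 gave 3 (Bmp2, Id1 and Hamp) and 7.97%. As with all 6 libraries, nothing is read from these counts, since the genes were chosen on this contrast. Of the other pathway genes, 10 were called with all libraries, 9 when AAV-GFP replicate 2 was left out, 5 for AAV-GFP replicate 3, 1 (Tsc22d1) for AAV-Ly6d replicate 3 and 0 for AAV-Ly6d replicates 1 and 2 and AAV-GFP replicate 1. These last 3 fits held 11, 16 and 16 of them at an unadjusted limma p under 0.05. Of all tested genes they held 773, 866 and 1173.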

How the data were processed

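Liver RNA sequencing libraries, 3 AAV-Ly6d and 3 AAV-GFP, were compared. Per the submitters' processing notes, Bowtie 0.12.2 and mm10 were used, in a role they do not state; how reads were counted, on which strand and with which annotation is unknown from the sources used here. Values deposited by the authors are a non-negative signal, normalised read counts: in every column 100% of values were whole multiples, within 0.001, of 1 step per library (0.844 to 1.09), the form of reads that the authors divided by a size factor. Multiplying back gave recovered reads. Symbols, coordinates and lengths are from GENCODE M21 (GRCm38, 55450 genes), and 1833 of 1834 identifiers had a symbol.

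Genes reaching a value of 1 in 3 or more libraries were fitted with limma 3.58.1 (R 4.3.3) on log2(value + 1) with a mean-variance trend; "rose" and "fell" mean an adjusted p under 0.05. Since the table was selected on these libraries, adjusted p-values understate the error. edgeR 4.0.16 and DESeq2 1.42.0 on recovered reads were alternatives. All tools were also run on simulated data in which most genes were unchanged, unlike the selected genes here. Nothing about the error in these data is read from those runs. The 8 genes, the lists and the naming rule were chosen with earlier results of these data known. The rule names the 8 genes, called pathway genes, the 5 nearest profiles of Bmp2, Id1 and Hamp, and the most abundant markers; pathway genes that did not pass, and the hepatocyte markers that rose, are named after their values were seen. The hepatocyte sum without Apob was chosen after seeing the data. Promoter windows are RefSeq's, and some promoter sequence is not reported here.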

Additional observations from a re-analysis of the deposited data

How the results depend on the processing

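Of 19 alternatives, 13 gave log2 fold changes of their own and 6 changed the filter, the error or the adjustment alone. Over the 8 genes, 0 of those 104 fold changes turned sign, and 93 of 152 adjusted p-values were under 0.05. The share of all tested genes called ran from 0% to 75.7% over the alternatives. Nothing is read from the 93, since the 8 genes were chosen on this contrast. The log2 fold changes of Bmp2 ranged from -1.59 to -1.13, of Id1 from 1.48 to 2.30 and of Hamp from 1.40 to 2.22. Smad7 passed in 4 of 19. Rescaling by the median ratio gave a median log2 fold change of -0.33 over all tested genes, against -0.67 on the deposited scale.

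Of all tested genes limma called 782, of the 8 genes 8 and of the other pathway genes 10. With a replicate block these were 48, 2 and 0 (16 of the pathway genes and 1127 of all tested genes at an unadjusted p under 0.05). Same-numbered libraries did not deviate together (r = -0.0199, -0.0475 and -0.0581). With 3 libraries in each group, this check could not exclude a weak shared effect of the replicate number. Adjusted over all annotated genes, limma called 1, 0 and 0. At an unadjusted limma p under 0.05 were 1394 of all tested genes, 8 of the 8 and 24 pathway genes. edgeR on the deposited scale called 465 genes, and with TMM factors 16 pathway genes. DESeq2 on the deposited scale, an alternative chosen after seeing the data, called 1347 genes and 22 pathway genes; adjusted over all annotated genes it called 124, 3 (Bmp2, Id1 and Hamp) and 1 (Bmp6). The share of calls that were higher was 69.1% with TMM factors and 74.3% with DESeq2's own size factors. Leaving out each library gave between 0 and 607 genes, 0 and 6 of the 8, and 0 and 9 pathway genes. Without AAV-Ly6d replicate 1, limma called 0 genes, with 773 at an unadjusted p under 0.05, and 8 of the 8 and 11 pathway genes among them. Without AAV-Ly6d replicate 2 and without AAV-GFP replicate 1 it called 0 pathway genes, each with 16 at an unadjusted p under 0.05. Of all tested genes 866 and 1173 were under that p. Fewer samples and more adjusted tests enter these fits by construction; the cause of the other changes was not tested. Depth limits Id4, with 12 to 70 reads, and the full depth of the libraries is unknown.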

Other observations

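Genes of the activin and TGF-beta branch, which shares SMAD4 and SMAD7 with the BMP branch, lay on both sides. Inhbe, which encodes a hepatocyte activin subunit, had 3040, 1919 and 2558 in AAV-Ly6d and 1687, 1123 and 1662 in AAV-GFP and rose by 0.75 on the log2 scale (SE 0.25, limma adjusted p = 0.0463). Inhbc, another hepatocyte activin subunit gene, rose by 0.71 (SE 0.21, limma adjusted p = 0.0414), with 1666, 1473 and 1557 in AAV-Ly6d and 1190, 747 and 972 in AAV-GFP. The groups did not overlap for either gene. Inhba and Inhbb, the subunit genes of activins A and B, were at -1.20 and -1.23 and did not pass; Inhba had 344 in AAV-GFP replicate 2, against 104 and 105 in the other AAV-GFP libraries.

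Of 3 tested receptor genes 1 fell and 2 did not pass, and their median log2 fold change was -0.69, against -0.67 over all tested genes. Tgfbr3, a co-receptor known as betaglycan, had 94.3, 157 and 134 in AAV-Ly6d and 247, 284 and 222 in AAV-GFP and fell by 0.98 (SE 0.27, limma adjusted p = 0.0398), a call that was lost after rescaling by the median ratio. Tgfbr2, the type II receptor gene of TGF-beta, had 333, 438 and 383 in AAV-Ly6d and 560, 554 and 527 in AAV-GFP and did not pass (-0.51, limma adjusted p = 0.0552). Bmpr2, the type II BMP receptor gene, did not pass (-0.69), and its AAV-GFP replicate 2 held 3107 against 1056 and 1138 in the other AAV-GFP libraries and 960, 1003 and 927 in AAV-Ly6d. Fstl1, a follistatin-like gene, had 13.6, 67.8 and 40.3 in AAV-Ly6d and 57.1, 139 and 106 in AAV-GFP, with overlap. Zfp423, a SMAD cofactor gene, had at most 26.1 in any library and did not pass (-1.20). Acvr1c was below the filter, with at most 20.3 in AAV-GFP replicate 3.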
